A study of Mus musculus with 9 samples.

Results

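*Rhox5*, *Rhox6* and *Rhox9* are 3 genes of the reproductive homeobox (Rhox) cluster on the mouse X chromosome, and they were followed here through 9 RNA-seq libraries of mouse embryonic stem cells (ESCs). They were picked by symbol from a gene table of 15074 genes after earlier results of these data were known, so their own levels are a description and no test was run on them. The table holds 5 Rhox genes in all, and the others, *Rhox1* and *Rhox13*, are given beside the 3 members.

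In all, 3 lines of J1 ESCs were sequenced at days 0, 2 and 4, with 1 library for each line and day. Wild-type (WT) cells were compared with *Dnmt1*-/- (1KO) cells and with 1KO+1CI cells, which are *Dnmt1*-/- cells that also carry DNMT1C1229S, a DNMT1 without catalytic activity expressed from the CAG promoter together with a zeocin resistance gene. Transgenic cells were isolated as clones, so a property of the clone used and an effect of the transgene cannot be told apart. The 1KO cells are a line derived earlier from J1 cells. A property of that line and an effect of DNMT1 loss cannot be told apart either. Day 0 cells were undifferentiated ESCs grown on mitomycin C-treated fibroblasts with LIF, and the later days followed feeder removal, embryoid body formation without LIF and adherent culture, a scheme meant to yield epiblast-like cells. DNMT1 copies methylation onto the new DNA strand after replication, and the study asked what its loss, and its protein without catalysis, do to ESCs and to their differentiation. Values are listed in the order WT, 1KO, 1KO+1CI unless said otherwise. With 1 library per condition there is no replicate error. The intervals below cover counting error only, rest on reads worked back from the FPKM steps, and say nothing of how 2 cultures of the same line would differ.

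Homeobox genes encode transcription factors with a DNA-binding homeodomain. The Rhox genes form a rodent-expanded cluster that is expressed mainly in testis, epididymis, ovary, placenta and germ cells. In most somatic tissues the cluster is silent and its promoters carry DNA methylation, and it is a standard example of X-linked genes whose silencing depends on DNA methyltransferases. *Rhox5*, also called Pem, is the founding member, known from Sertoli cells, epididymis and extraembryonic tissue, and it is also transcribed in ESCs. *Rhox6* and *Rhox9*, also called Psx1 and Psx2, are a closely related pair known from placenta and germ cells.

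On the GRCm38 build all 3 members are protein-coding and lie within 96.9 kb of each other. *Rhox5* spans chrX:37804842-37808876 on the plus strand in GENCODE, and RefSeq places its first start far upstream, at position 37754608. *Rhox6* spans chrX:37826910-37829857 on the plus strand, and *Rhox9* spans chrX:37899097-37901770 on the minus strand. *Rhox1* (chrX:37213804-37222258, minus strand) and *Rhox13* (chrX:38121219-38129967, plus strand) lie toward opposite edges of the cluster. GENCODE places 42 Rhox genes, 34 of them protein-coding, within 1 Mb of the members, and only the 5 named are in the gene table. The smallest value among its 15074 genes is 0.0013 FPKM, so no gene at 0 in any library is among them. Whether the absent Rhox genes were at 0 was not tested.

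The likeness of *Rhox6* and *Rhox9* bears on how their values can be read, so their sequences are shown first. Each has 4 exons with coding parts of 82, 460, 46 and 93 bases, and their 681-base coding sequences align without a gap at 617 identical bases, or 90.6%. The coding sequence of *Rhox5* (630 bases) is 62.5% identical to that of *Rhox6* and 67.0% identical to that of *Rhox9* over the aligned bases, and it too has a coding exon of 46 bases. The longest stretch that *Rhox6* and *Rhox9* share without a difference is 161 bases of exon 2, at chrX:37827450-37827610 in *Rhox6* and chrX:37901167-37901327 in *Rhox9*. It is shown because a read from it fits both genes.
Shared by Rhox6 and Rhox9: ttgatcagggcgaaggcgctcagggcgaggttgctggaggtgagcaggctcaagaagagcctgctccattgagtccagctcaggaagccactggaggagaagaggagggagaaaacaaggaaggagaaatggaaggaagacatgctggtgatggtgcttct

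Further along the same exon the pair comes apart. The 60 coding bases with the most differences, bases 403 to 462 of both coding sequences, differ at 19 positions, printed in capitals, and a read covering them tells the genes apart. They lie at chrX:37827686-37827745 in *Rhox6* and chrX:37901032-37901091 in *Rhox9*.
Rhox6: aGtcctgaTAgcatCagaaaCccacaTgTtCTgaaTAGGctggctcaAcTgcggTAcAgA
Rhox9: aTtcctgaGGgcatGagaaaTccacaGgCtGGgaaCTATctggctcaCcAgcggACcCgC

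Of all 150-base windows along the *Rhox6* transcript, 1.39% also occur in that of *Rhox9*, and of all 50-base windows 16.5% do. How the authors' counting treated a read that fits both genes is not given in the sources used here, so a small exchange of reads within this pair cannot be told apart from expression of both. No 50-base window of *Rhox5*, *Rhox1* or *Rhox13* occurs in another of the 5 transcripts.

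The RefSeq promoter table (GRCm38.p6) matched 3 of the 5 genes, *Rhox5*, *Rhox1* and *Rhox13*. The 250 bases before their starts are printed with CG dinucleotides, the sites that DNA methyltransferases modify, in capitals, because a gene silenced by methylation is usually discussed through them. The *Rhox5* stretch lies at chrX:37754358-37754607 on the plus strand, that of *Rhox1* at chrX:37222259-37222508 on the minus strand, and that of *Rhox13* at chrX:38120590-38120839 on the plus strand.
Rhox5: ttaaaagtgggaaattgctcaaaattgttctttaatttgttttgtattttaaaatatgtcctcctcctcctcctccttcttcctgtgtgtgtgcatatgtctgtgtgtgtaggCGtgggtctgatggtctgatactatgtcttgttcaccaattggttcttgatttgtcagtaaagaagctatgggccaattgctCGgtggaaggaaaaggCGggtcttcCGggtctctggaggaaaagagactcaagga
Rhox1: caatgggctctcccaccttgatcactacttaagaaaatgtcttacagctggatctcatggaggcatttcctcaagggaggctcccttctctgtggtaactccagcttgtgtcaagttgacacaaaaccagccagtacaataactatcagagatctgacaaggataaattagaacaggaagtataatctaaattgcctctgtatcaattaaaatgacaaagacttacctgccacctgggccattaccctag
Rhox13: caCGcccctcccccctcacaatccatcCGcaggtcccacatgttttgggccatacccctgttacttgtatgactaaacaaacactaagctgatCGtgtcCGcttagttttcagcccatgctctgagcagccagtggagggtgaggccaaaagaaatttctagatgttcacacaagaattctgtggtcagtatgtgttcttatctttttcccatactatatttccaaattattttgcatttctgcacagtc

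The *Rhox5* stretch precedes the RefSeq start, which lies far upstream of the GENCODE start, and which start these cells used was not tested. It holds 4 CG dinucleotides, 0.36 of the number its C and G content would give. *Rhox13* also has 4 (0.33 of that number) and *Rhox1* has 0. Over all 32851 promoters in the table the median was 6 and the quartiles 2 and 16, so *Rhox5* and *Rhox13* have more CG than 37.8% of promoters. The 28 Rhox promoters in the table had a median of 4.5 and a range from 0 to 10, and none of them reached the upper quartile of all promoters. Sequence motifs of 2 repressors of germline genes were searched on both strands. CACGTG, the E-box read by MAX and MGA, was in 6.02% of all promoters and in 5 of the 28 Rhox promoters, and GGCGGGA, an E2F6-type motif, was in 9.75% and in 1 of the 28. Neither was in the printed stretches, which says only that these letters are absent from these windows.

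Whether the lines are what their labels say was checked first. *Dnmt1* stood at 74.0, 80.4 and 48.5 FPKM (fragments per kilobase, scaled to library size) on days 0, 2 and 4 of the WT course, at 13.7, 17.4 and 12.3 FPKM in the knockout, and at 315, 129 and 158 FPKM in the line with the transgene, with no overlap between the lines. *Pou5f1*, the central pluripotency factor, was between 632 and 1010 FPKM in all 9 libraries. The libraries held 20088368 to 27913507 reads as worked back from the FPKM steps, if 1 step is 1 read, and the deepest was 1KO day 0, the library in which the 3 members were highest.

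*Rhox5* was the most abundant Rhox gene in every library. It measured 43.0, 91.5 and 49.4 FPKM at day 0, then 31.2, 28.7 and 27.8 FPKM at day 2, and 14.8, 17.6 and 17.4 FPKM at day 4. The 1KO day 0 library stood alone at the top, and at days 2 and 4 the lines were close together. Since the RNA is from whole cultures, fewer cells of a type and less RNA per cell cannot be told apart. In the order of levels the 3 day 0 libraries came first, then the 3 of day 2, then the 3 of day 4. Within day 2 and within day 4 the counting intervals of neighbouring libraries overlapped a ratio of 1, whereas 1KO+1CI and WT at day 0 differed by 1.15-fold (95% counting interval 1.04 to 1.27).

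*Rhox6* was lower, with *Rhox5* at 10.7, 3.24 and 5.06 times its FPKM at day 0, and moved over a wider range, 23.3-fold from lowest to highest against 6.2-fold for *Rhox5*. It measured 4.04, 28.2 and 9.76 FPKM at day 0 (72, 682 and 201 reads), then 8.44, 5.58 and 3.88 FPKM at day 2 (177, 101 and 71 reads), and 1.21, 3.08 and 5.24 FPKM at day 4 (22, 60 and 91 reads). The order of the lines was thus different on each day, with 1KO first at day 0, WT first at day 2 and 1KO+1CI first at day 4. Apart from 1KO day 0 at the top, WT day 4 at the bottom and the step from WT to 1KO at day 2, neighbours in the order did not differ beyond counting error.

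*Rhox9* went with *Rhox6* at days 0 and 2 and parted from it at day 4. It measured 4.13, 19.9 and 7.24 FPKM at day 0 (75, 491 and 152 reads), then 8.74, 4.66 and 2.25 FPKM at day 2 (187, 86 and 42 reads), and 2.17, 2.41 and 1.35 FPKM at day 4 (40, 48 and 24 reads). Its last 4 libraries in the order, from 1KO day 4 at 2.41 FPKM down to 1KO+1CI day 4 at 1.35 FPKM, had neighbours whose counting intervals held a ratio of 1. The ratio of *Rhox6* to *Rhox9* was 0.979 and 0.965 in WT cells at days 0 and 2, 1.42 and 1.35 in the mutant lines at day 0, and ranged at day 4 from 0.561 in WT to 3.87 in 1KO+1CI cells.

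**Figure D1:**
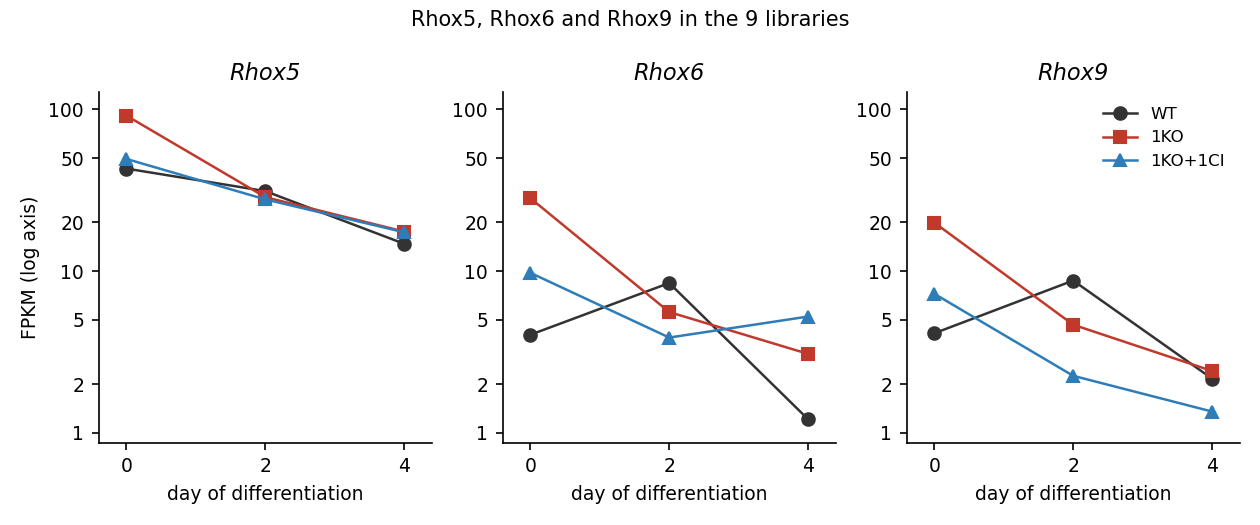
FPKM (log axis) of *Rhox5*, *Rhox6* and *Rhox9* against the day of differentiation, 1 point per library, with lines joining the libraries of WT, 1KO and 1KO+1CI cells. All 3 genes were highest in 1KO cells at day 0 (91.5, 28.2 and 19.9 FPKM), and WT *Rhox6* and *Rhox9* peaked at day 2 (8.44 and 8.74 FPKM).

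The first comparison sets 1KO against WT cells, starting with undifferentiated ESCs. At day 0 all 3 members were more than 2-fold higher in 1KO than in WT cells. Here past 2-fold means a difference above 1 on the log2(FPKM + 1) scale. Over all genes 2.24% were that much higher and 1.55% that much lower. These values chose the members, so nothing is read from the count. The difference was 1.07 for *Rhox5*, 2.54 for *Rhox6* and 2.03 for *Rhox9*, against a median of -0.01 over all genes. As ratios of FPKM these were 2.13 (95% counting interval 1.95 to 2.33), 6.99 (5.48 to 9.04) and 4.83 (3.78 to 6.24). Ordered by this difference among the 15074 genes, *Rhox6* was at place 8, *Rhox9* at 22 and *Rhox5* at 271.

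By day 2 the same contrast no longer held. None of the 3 was past 2-fold in either direction, where 1.6% of all genes were higher and 0.663% lower. *Rhox5* differed by -0.12, with a ratio of 0.918 (0.81 to 1.04). *Rhox6* and *Rhox9* were lower in 1KO than in WT cells, by -0.52 and -0.78, with ratios of 0.662 (0.513 to 0.85) and 0.533 (0.408 to 0.692). The sign was thus opposite to that at day 0 for this pair, and both intervals lay below 1. Stage markers moved in the same libraries. In 1KO minus WT at day 2, 3 of 6 epiblast genes were past 2-fold higher and 0 lower (median 1.22), and of 9 pluripotency genes 0 were higher and 0 lower (median -0.37). For 1KO+1CI minus WT that day 3 epiblast genes were higher and 0 lower (median 1.32), and 0 pluripotency genes were higher and 3 lower (median -0.60). In that comparison 2.28% of all genes were higher and 1.26% lower. The part of a different pace of differentiation in the day 2 values was not tested. At day 4 again none was past 2-fold, with 1.67% of genes higher and 0.59% lower. *Rhox6* was higher in 1KO cells by 0.88, a ratio of 2.54 (1.53 to 4.34) on 60 against 22 reads, while *Rhox5* and *Rhox9* differed by 0.24 and 0.11 with ratios of 1.19 (0.998 to 1.42) and 1.12 (0.718 to 1.74).

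The second comparison asks what the inactive DNMT1 protein adds to 1KO cells. With the inactive protein 2 of the 3 members were more than 2-fold lower at day 0, where 0.239% of all genes were that much lower and 0.179% higher. The differences were -1.44 for *Rhox6* and -1.35 for *Rhox9*, and *Rhox5* was at -0.88, just inside the limit. In the other direction, 1KO exceeded 1KO+1CI by 1.85-fold (1.71 to 2.01) for *Rhox5*, 2.89-fold (2.47 to 3.4) for *Rhox6* and 2.76-fold (2.29 to 3.33) for *Rhox9*. This comparison shares the 1KO day 0 library with the one above, so that library's own level enters both with opposite sign. Against WT cells, which do not share it, 1 of the 3 was past 2-fold higher in 1KO+1CI cells at day 0, with 2.54% of all genes higher and 1.97% lower. That was *Rhox6*, at 1.09 or 2.41-fold (1.84 to 3.21), with *Rhox9* at 0.68 or 1.75-fold (1.32 to 2.34) and *Rhox5* at 0.19.

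At day 2 none of the members was past 2-fold when 1KO+1CI was set against 1KO, where 0.153% of all genes were higher and 0.186% lower. The differences were -0.04 for *Rhox5*, -0.43 for *Rhox6* and -0.80 for *Rhox9*. Against WT cells 1 of the 3 was past 2-fold lower at day 2, with 1.26% of all genes lower and 2.28% higher. That was *Rhox9* at -1.58, a WT level 3.88 times (2.76 to 5.56) that of 1KO+1CI cells, and *Rhox6* was at -0.95. At day 4 none was past 2-fold in that contrast, where 0.624% of genes were higher and 0.292% lower. There the pair went opposite ways, with *Rhox6* at 0.61 (ratio 1.70, 1.21 to 2.40) and *Rhox9* at -0.54 (ratio 0.561, 0.329 to 0.934), and *Rhox5* was at -0.01. Against WT cells at day 4, 1 of the 3 was past 2-fold higher, with 3.01% of genes higher and 1.01% lower. That was *Rhox6* again, at 1.49 or 4.31-fold (2.68 to 7.22) on 91 against 22 reads.

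At a looser limit of 0.5 on the log2 scale the 3 members were counted again, each count with the share of all genes past the limit in the same direction. In 1KO minus WT, 3 were above it at day 0 (10.0%) and 0 below (11.1%), 0 were above (7.09%) and 2 below (7.18%) at day 2, and 1 was above (7.61%) and 0 below (5.32%) at day 4. In 1KO+1CI minus 1KO, 0 were above (2.43%) and 3 below (3.62%) at day 0, 0 above (2.32%) and 1 below (1.67%) at day 2, and 1 above (4.36%) and 1 below (3.44%) at day 4. In 1KO+1CI minus WT, 2 were above (9.68%) and 0 below (12.5%) at day 0, 0 above (9.21%) and 2 below (7.91%) at day 2, and 1 above (10.7%) and 0 below (8.33%) at day 4. *Rhox6* was past this limit in 8 of the 9 comparisons, all but 1KO+1CI minus 1KO at day 2, and *Rhox5* in 2, both at day 0. *Rhox9* was past it in all but 1KO minus WT and 1KO+1CI minus WT at day 4. The comparisons share libraries, and the share of all genes past the limit so often was not counted.

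**Figure D2:**
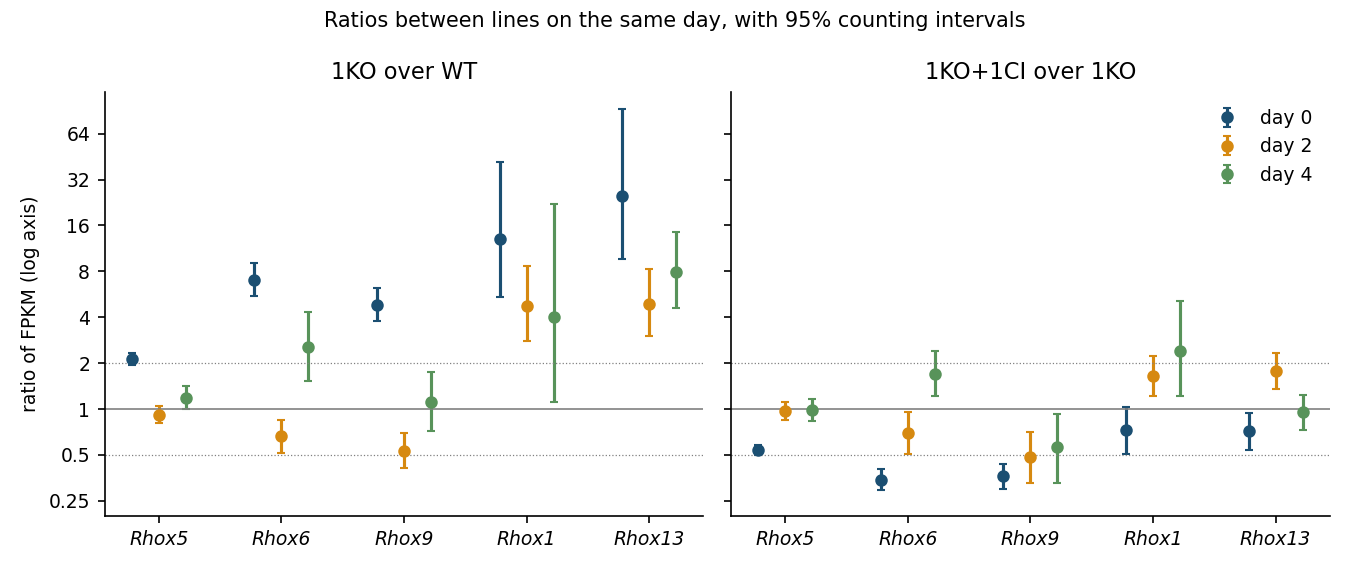
Ratio of FPKM (log axis) between 1KO and WT cells, left, and between 1KO+1CI and 1KO cells, right, for the 5 Rhox genes at days 0, 2 and 4; bars are 95% counting intervals, the solid line marks equal levels and the dotted lines a 2-fold ratio either way. At day 0 all 5 ratios of 1KO over WT lie above 2, and at day 2 those of *Rhox6* and *Rhox9* lie below 1 (0.662 and 0.533).

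Within each line the members took different courses as the cells differentiated. In 1KO cells all 3 were more than 2-fold lower at day 2 than at day 0, by -1.64, -2.15 and -1.89 for *Rhox5*, *Rhox6* and *Rhox9*, where 3.32% of all genes were that much lower and 1.39% higher. In 1KO+1CI cells 2 of the 3 were, *Rhox6* at -1.14 and *Rhox9* at -1.34, with *Rhox5* at -0.81, where 3.32% of genes were lower and 1.81% higher. In WT cells none was past 2-fold between these days, where 2.18% of genes were higher and 3.87% lower, and *Rhox6* and *Rhox9* were higher at day 2, by 0.90 and 0.93 or 2.09-fold (1.58 to 2.79) and 2.12-fold (1.61 to 2.81), while the difference of *Rhox5* was -0.45.

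Between days 2 and 4 it was the WT cells in which all 3 were past 2-fold lower, with 4.29% of genes lower and 3.83% higher. The WT differences were -1.03 for *Rhox5*, -2.09 for *Rhox6* and -1.62 for *Rhox9*. None was past 2-fold over this step in 1KO cells, where 3.64% of genes were lower and 3.89% higher, with differences from -0.73 to -0.68, or in 1KO+1CI cells, where 3.1% were lower and 3.62% higher, with *Rhox6* at 0.35, *Rhox9* at -0.47 and *Rhox5* at -0.65.

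*Rhox1* and *Rhox13*, the other 2 Rhox genes of the table, are less studied members of the cluster, *Rhox13* being known from germ cells of the testis. They showed another pattern. *Rhox1* measured 0.276, 3.62 and 2.62 FPKM at day 0 (5, 89 and 55 reads), then 0.796, 3.8 and 6.23 FPKM at day 2 (17, 70 and 116 reads), and 0.163, 0.655 and 1.58 FPKM at day 4 (3, 13 and 28 reads). *Rhox13* measured 0.154, 3.87 and 2.77 FPKM at day 0 (4, 136 and 83 reads), 0.688, 3.38 and 6.02 FPKM at day 2 (21, 89 and 160 reads), and 0.569, 4.51 and 4.31 FPKM at day 4 (15, 128 and 109 reads). On each day both mutant lines exceeded WT for both genes, and for *Rhox13* the 3 WT libraries were below all 6 mutant libraries. The share of all genes with such an order was not counted, and the days of a line are not replicates.

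The 1KO minus WT differences were 1.86, 1.42 and 0.51 for *Rhox1* and 2.08, 1.38 and 1.81 for *Rhox13* at days 0, 2 and 4. The ratio for *Rhox1* at day 4, 4.02 with an interval of 1.11 to 22.0, rests on 3 reads in WT cells. For 1KO+1CI minus 1KO at day 0 the differences were -0.35 for *Rhox1* (ratio 0.724, 0.508 to 1.03) and -0.37 for *Rhox13* (ratio 0.715, 0.538 to 0.947), smaller than those of the 3 members. At day 2 both were higher in 1KO+1CI cells, by 0.59 and 0.68, where *Rhox6* and *Rhox9* were lower. Whether this pair differs from the members beyond the spread between cultures was not tested.

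**Figure D3:**
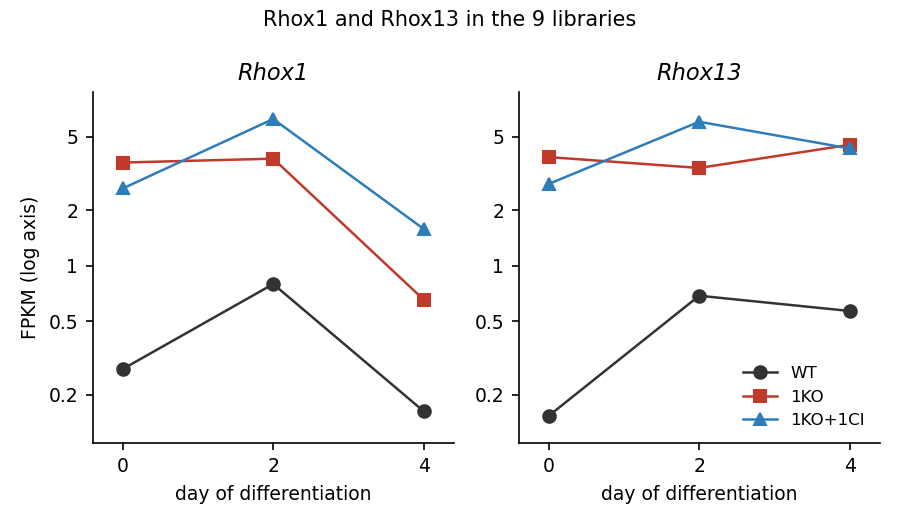
FPKM (log axis) of *Rhox1* and *Rhox13* against the day of differentiation, 1 point per library. The WT points lie below those of both mutant lines on each day, and the highest point of each gene is 1KO+1CI at day 2 (6.23 and 6.02 FPKM).

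Over the 9 libraries the levels of the members went together, with Pearson correlations of log2(FPKM + 1) of 0.864 between *Rhox5* and *Rhox6*, 0.884 between *Rhox5* and *Rhox9* and 0.866 between *Rhox6* and *Rhox9*. *Rhox1* and *Rhox13* were correlated at 0.76. Between this pair and the members, *Rhox1* was correlated at 0.409 with *Rhox5*, 0.498 with *Rhox6* and 0.249 with *Rhox9*, and *Rhox13* at 0.005, 0.264 and -0.1. The 9 points share their lines and days. The genes whose course was most like each member, among 4952 genes with at least 1 FPKM in some library and a range of at least 1 on the log2 scale, are given as a description. For *Rhox5* they were *Zbtb45* (0.984), *Erf* (0.979), *Fcgrt* (0.975), *Arhgef1* (0.973) and *Castor1* (0.972). For *Rhox6* they were *Zbtb32* (0.969), *1110002J07Rik* (0.961), *Epop* (0.926), *Wnt7b* (0.911) and *Castor1* (0.909), and for *Rhox9* they were *Epop* (0.923), *Castor1* (0.919), *AA414768* (0.91), *Zbtb45* (0.906) and *Lgals9* (0.906).

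*Epop*, which encodes a Polycomb-associated protein of ESCs, was near the top for both *Rhox6* and *Rhox9*. It measured 45.0, 126 and 84.7 FPKM at day 0, 78.4, 75.8 and 50.7 FPKM at day 2, and 38.7, 48.2 and 45.0 FPKM at day 4. *Castor1*, an arginine sensor of the mTORC1 pathway, was near the top for all 3 members and measured 25.9, 49.2 and 36.8 FPKM at day 0. Both genes were highest in the 1KO day 0 library, as the members were.

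The region around the cluster did not share the day 0 difference. Of the genes outside the Rhox family within 1 Mb of the members, 16 were in the table. None of them was past 2-fold in any of the 9 comparisons between lines. In 1KO minus WT at day 0, 2.24% of all genes were past it higher and 1.55% lower. In 1KO minus WT at day 0 they ranged from -0.38 to 0.78 with a median of 0.10, and the highest was *Ube2a*, a ubiquitin-conjugating enzyme gene. In 1KO+1CI minus 1KO at day 0 they ranged from -0.62 to 0.34. No gene of another family in the table lies between *Rhox1* and *Rhox13*.

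**Figure D4:**
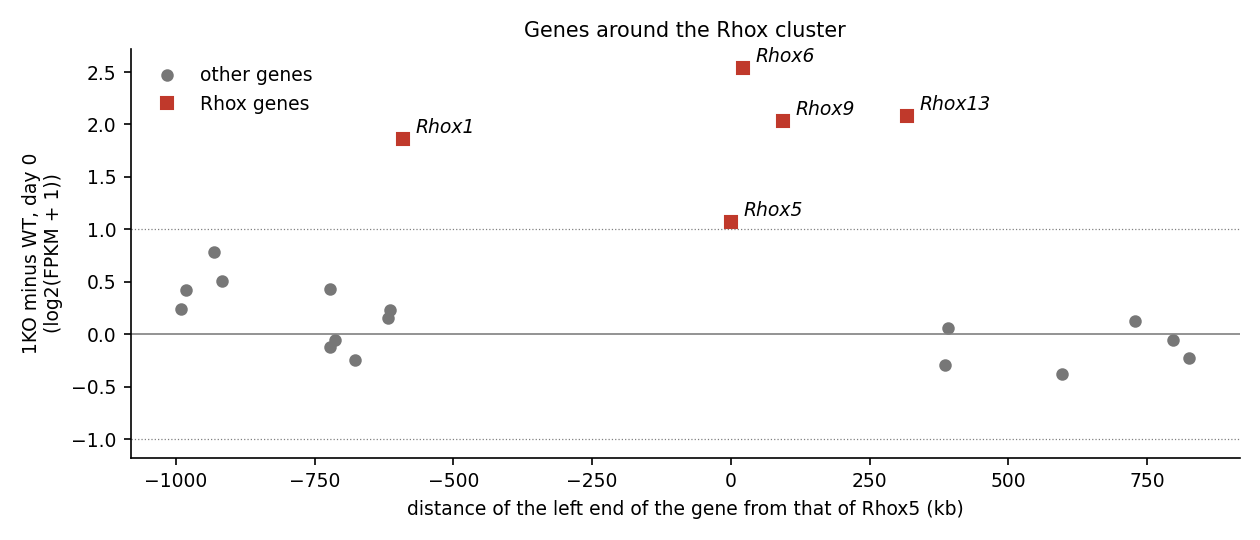
Difference in log2(FPKM + 1) between 1KO and WT cells at day 0 (y axis) against the distance in kb of the left end of each gene from that of *Rhox5* (x axis) for the 5 Rhox genes and the 16 other genes of the table within 1 Mb; dotted lines mark 2-fold. The Rhox genes lie between 1.07 and 2.54, above the 16 others, which lie between -0.38 and 0.78.

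The enzymes and repressors that act on such promoters were described from a list of 18 genes for DNA methylation and germline gene repression. In 1KO minus WT at day 0, 1 was past 2-fold higher and 1 lower, where 2.24% of all genes were higher and 1.55% lower. The higher was *Dnmt3l*, the cofactor of the de novo methyltransferases, at 41.3, 203 and 203 FPKM at day 0, and the lower was *Dnmt1* itself at -2.36. *Dnmt3b* stood at 73.6, 107 and 87.6 FPKM at day 0 and at 115, 224 and 220 FPKM at day 2, and *Uhrf1*, which brings DNMT1 to replicating DNA, at 107, 156 and 132 FPKM at day 0. The repressors *E2f6*, *Pcgf6*, *Mga* and *Max* differed between 1KO and WT cells by -0.22 to 0.47 at day 0. In the same list and comparison *Ehmt1*, *Ehmt2*, *Setdb1*, *Trim28* and *L3mbtl2* differed by -0.13, 0.17, 0.36, 0.58 and 0.81. All of these except *Dnmt3l* and *Dnmt1* were named for their roles after their values were seen.

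Germline genes outside the cluster whose promoters are silenced by methylation were listed for comparison. Of 26 listed, 24 were measured. In 1KO minus WT, 11 were past 2-fold higher and 1 lower at day 0, 10 and 0 at day 2, and 3 and 1 at day 4. Over all genes 2.24%, 1.6% and 1.67% were higher and 1.55%, 0.663% and 0.59% lower. The medians of the list were 0.83, 0.75 and 0.30 against -0.01, 0.0 and 0.0 over all genes. In 1KO+1CI minus 1KO at day 0, 1 of the 24 was higher and 0 lower, with a median of 0.05. There 0.179% of all genes were higher and 0.239% lower. *Fkbp6*, needed for meiosis and transposon silencing in the testis, measured 0.547, 13.9 and 10.6 FPKM at day 0. *Tuba3a*, a testis tubulin gene with a close copy, measured 3.40, 20.5 and 19.0 FPKM, and *Slc25a31*, the germ cell ADP/ATP carrier, 0.321, 3.37 and 2.14 FPKM. These 3 were past 2-fold in 1KO minus WT on all 3 days. *Sycp3*, a synaptonemal complex gene, was the lowest of the list, at -1.61, with 12.8, 3.52 and 5.82 FPKM.

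Of 34 X-linked reproductive genes outside the cluster 9 were measured, of which *Tex11* and *Taf7l* are also in the germline list. In 1KO minus WT at days 0, 2 and 4, 6, 6 and 4 of the 9 were past 2-fold higher, with 0 lower. Over all genes 2.24%, 1.6% and 1.67% were higher and 1.55%, 0.663% and 0.59% lower. *Xlr3a* measured 0.530, 18.1 and 22.7 FPKM at day 0, *Xlr3b* 0.270, 12.7 and 13.7 FPKM, and *Nxf3*, an mRNA export factor relative, 0.0160, 3.97 and 4.41 FPKM. *Xlr3a* and *Xlr3b* are close copies, so the split of reads between them is uncertain. *Mageb16* had the lowest difference, at -0.01. For 1KO+1CI minus 1KO at day 0, 1 of the 9 was past 2-fold lower and 0 higher, where 0.239% of all genes were lower and 0.179% higher. That was *Fthl17a*, a ferritin-like testis gene named after its values were seen, which stood at 0.577, 2.77 and 0.598 FPKM at day 0, 0.784, 0.568 and 0.337 FPKM at day 2, and 0.454, 1.79 and 2.37 FPKM at day 4. The order of the 3 lines was that of *Rhox6* on each day, though WT and 1KO+1CI cells were nearly level at day 0. How many of all genes have that order was not counted. The one measured gene of 2 listed as a target of RHOX5 in Sertoli cells, *Unc5c*, a netrin receptor gene, was at 0.0935, 0.424 and 0.421 FPKM at day 0 and at no more than 0.217 FPKM later. At such levels a difference of 1 on the log2(FPKM + 1) scale cannot be reached, so its place within the limit says nothing of its ratio.

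Markers of other cell types moved with the members in part. Trophoblast markers were taken because *Rhox6* and *Rhox9* are placental genes. Of 18 listed 13 were measured, and the defining markers *Cdx2* and *Elf5* as well as *Tpbpa*, *Plac1* and *Prl3d1* were not analysed here. Past 2-fold higher in 1KO minus WT at day 0 were 4 of the 13, *Hand1*, *Gata2*, *Ascl2* and *Peg10*, with 0 lower and a median of 0.19. Of all genes 2.24% were that much higher and 1.55% lower. In 1KO+1CI minus 1KO at day 0, 0 of the 13 were higher and 3 were lower, *Hand1*, *Krt8* and *Krt18*, with a median of -0.58. There 0.179% of all genes were higher and 0.239% lower. *Hand1*, a transcription factor of trophoblast giant cells and mesoderm, measured 1.35, 4.56 and 1.23 FPKM at day 0. *Krt18* measured 114, 83.1 and 31.9 FPKM, and *Peg10*, an imprinted gene of placenta, 78.2, 159 and 116 FPKM. The summed level of the 13 was 357, 408 and 239 FPKM at day 0, 235, 310 and 340 FPKM at day 2, and 206, 425 and 695 FPKM at day 4, so the order of the lines by this sum was that of *Rhox6* at day 4 but not at days 0 and 2. *Peg10* made up much of it at day 2, with 85.9, 194 and 239 FPKM. Without *Peg10*, a sum taken after the values were seen, the other 12 markers came to 279, 249 and 122 FPKM at day 0, 150, 116 and 101 FPKM at day 2, and 155, 241 and 379 FPKM at day 4, in the order of *Rhox6* at days 2 and 4 but not at day 0. Much of this sum was *Krt8* and *Krt18*. At day 2 they measured 64.8, 52.3 and 46.9 FPKM, and 54.7, 42.5 and 33.8 FPKM. At day 4 they measured 65.3, 90.8 and 177 FPKM, and 69.9, 103 and 145 FPKM. The order of the sum on those days was thus that of both keratin genes. The medians of the 13 for 1KO minus WT and 1KO+1CI minus WT were -0.30 and -0.46 at day 2 and 0.47 and 0.68 at day 4, with the signs of *Rhox6*. At day 0 they were 0.19 and -0.27, the second opposite in sign to *Rhox6*. Other marker lists also had the order of *Rhox6* at day 4 by summed level. Endoderm genes came to 199, 247 and 417 FPKM and feeder markers to 37.5, 59.1 and 176 FPKM. Pluripotency genes (1780, 1560 and 1360 FPKM) and epiblast genes (645, 597 and 437 FPKM) had the reverse order. Primordial germ cell genes and Sertoli and epididymal genes had neither order. No gene of the table is listed at 0, and whether the unmeasured trophoblast markers were at 0 was not tested. The part of trophoblast cells in the result was not tested.

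Feeder fibroblast markers were also higher in the mutant lines at day 0. Of 10 listed 9 were measured, and 4 were past 2-fold higher in 1KO minus WT at day 0, with 0 lower and a median of 0.94. Of all genes 2.24% were that much higher and 1.55% lower. The summed level of the 9 markers was 137, 275 and 308 FPKM at day 0. It was 39.7, 49.4 and 66.8 FPKM at day 2, and 37.5, 59.1 and 176 FPKM at day 4. *Thy1*, at 4.82, 12.8 and 16.7 FPKM, had the highest difference, and *Postn*, at 5.14, 8.63 and 9.20 FPKM, the lowest. Of the 2 mutant lines at day 0, the sum was higher in 1KO+1CI cells, in 1 library each. The part of feeder RNA in the differences of the members between the 3 lines was not tested.

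Of the remaining marker lists, in 1KO minus WT at day 0 the numbers past 2-fold higher and lower were 0 and 1 of 15 primitive and visceral endoderm genes, 1 and 0 of 7 primordial germ cell genes, 0 and 0 of 4 Sertoli and epididymal genes, 2 and 0 of 9 pluripotency genes, and 0 and 0 of 6 epiblast genes. In 1KO+1CI minus 1KO at day 0 they were 0 and 0, 0 and 1, 0 and 0, 0 and 0, and 0 and 0. Over all genes 2.24% were higher and 1.55% lower in 1KO minus WT, and 0.179% and 0.239% in 1KO+1CI minus 1KO. The summed level of the primordial germ cell genes was 107, 171 and 174 FPKM in the 3 lines at day 0 and 46.3 to 47.6 FPKM at day 2, and that of the Sertoli and epididymal genes was at most 9.91 FPKM in any library.

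**Figure D5:**
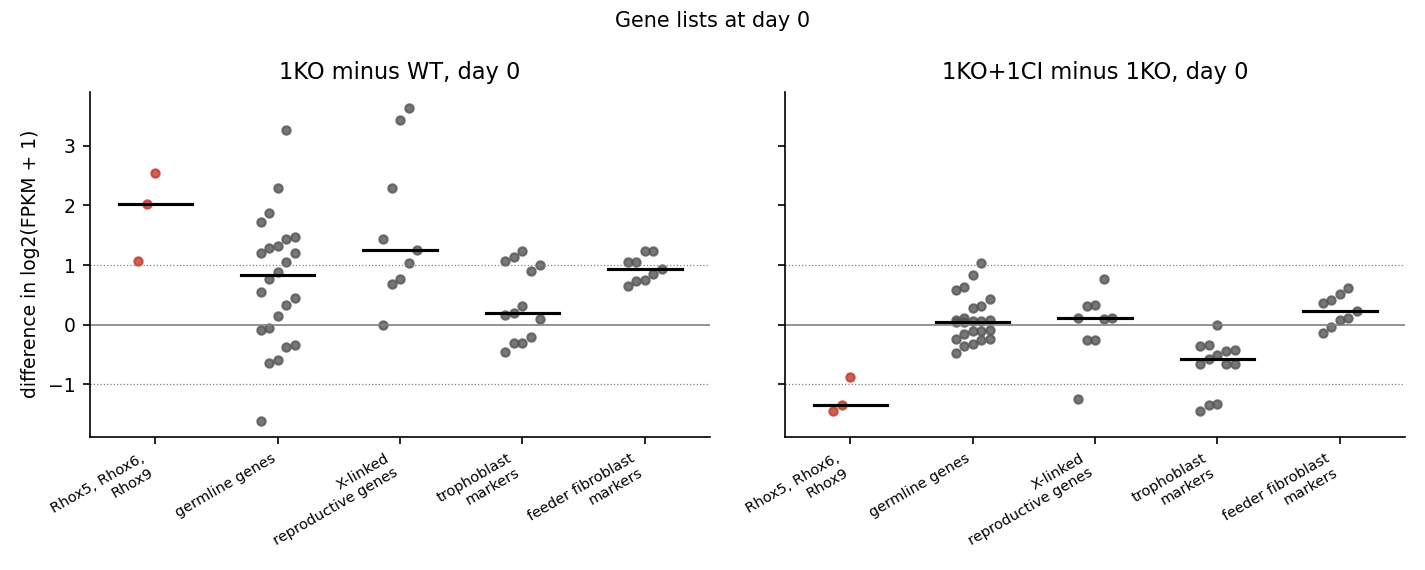
Difference in log2(FPKM + 1) at day 0 between 1KO and WT cells, left, and between 1KO+1CI and 1KO cells, right, for the genes of 5 lists; 1 point per gene, black bars are medians and dotted lines mark 2-fold. On the left the medians of *Rhox5*, *Rhox6* and *Rhox9* and of the germline and X-linked lists are 2.03, 0.83 and 1.26; on the right they are -1.35, 0.05 and 0.11.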

How the data were processed

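Polyadenylated RNA of 9 cultures was sequenced on an Illumina system with paired reads. The authors used Trim Galore for trimming, HISAT2 with mm10 for mapping, SAMtools for conversion and HOMER for the FPKM values per gene that they deposited; the sources used here give no tool versions. The members and gene lists were chosen with earlier results of these data known. Of 15095 entries with deposited FPKM values, 21 whose symbols read as dates or 0 were left out (at most 0.117% of a library's sum), leaving 15074 genes. Differences were taken on log2(FPKM + 1) between single libraries, and past 2-fold means above 1 or below -1; no test was run, as each condition has 1 library and the members were chosen on these values. This scale understates differences of low genes. Library depth and whole reads were worked back from the FPKM steps and checked on simulated data. Of 1850 genes searched at their annotated length, 256 fell within 0.2 reads of whole numbers in all libraries. Genes with many reads could not be among them. For *Rhox6*, *Rhox9*, *Rhox1* and *Rhox13* the length was fitted, at 865, 882, 881 and 1258 bases. There they came within 0.14, 0.157, 0.043 and 0.022 reads. The GENCODE transcripts of *Rhox6* and *Rhox13* have 1010 and 876 bases, so those lengths differ from the fit. RefSeq starts *Rhox6* further in than GENCODE (37827055 against 37826910) and *Rhox13* further out (38120840 against 38121219). These are the directions in which the fitted lengths differ. The shared windows of *Rhox6* and *Rhox9* were taken on the GENCODE transcripts. *Rhox9* also came within 0.19 reads at a length of 1364 bases in place of 882, which would give 116 in place of 75 reads in WT day 0, so its read numbers are less certain. Those of *Rhox5* are approximate, at a length of 754 bases. Ratio intervals are exact (Clopper-Pearson) conditional binomial at 95% and cover counting error only, as reads of 1 fragment or of 1 PCR product are not independent. Sequences and positions come from GENCODE M21 and RefSeq. Genes named in each list are those with the largest and smallest 1KO minus WT difference at day 0 and up to 2 more past 2-fold on all 3 days. Any others are said to be named after their values were seen, or make up a count that is given. *Pou5f1* and the neighbour *Ube2a* were named outside this rule. Python 3.11.15, pandas 2.3.3, SciPy 1.17.1 and Biopython 1.88 were used.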

Additional observations from a re-analysis of the deposited data

Results flagged for a closer look

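Several contrasts of the Rhox genes had opposite signs in 2 groups of libraries, with the counting interval of each ratio clear of 1; with 1 library per condition the difference between the groups was not tested. For 1KO minus WT, *Rhox6* stood at 2.54 on the log2 scale at day 0, -0.52 at day 2 and 0.88 at day 4, and *Rhox9* at 2.03 at day 0 and -0.78 at day 2. For 1KO+1CI minus 1KO, *Rhox6* stood at -1.44 at day 0, -0.43 at day 2 and 0.61 at day 4, and *Rhox13* at -0.37 at day 0 and 0.68 at day 2. For 1KO+1CI minus WT, *Rhox6* stood at 1.09, -0.95 and 1.49 at days 0, 2 and 4, and *Rhox9* at 0.68 and -1.58 at days 0 and 2. Between days 0 and 2, *Rhox6* was at 0.90, -2.15 and -1.14 (WT, 1KO, 1KO+1CI), and *Rhox9* at 0.93, -1.89 and -1.34. Between days 2 and 4, *Rhox13* was at 0.33 in 1KO and -0.40 in 1KO+1CI cells. These contrasts share libraries and are not independent of each other.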

How the results depend on the processing

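Of 54 recounts of the members past 2-fold, 42 gave the main count or one within 1.5 times of it and 12 did not, with 0 reversals, and all 3 members were past the limit in 1KO minus WT at day 0 under each of the 6 alternatives. One alternative kept only genes with at least 1 FPKM in some library. It leaves the members unchanged, so its recounts had to match. A smaller pseudocount or the looser limit cannot bring back a member already past the limit. Only the rescalings to a common sum or by median ratios could have done so. A reversal could be counted only where the main count was not 0. With a pseudocount of 0.1 or 0.01, 1 member (*Rhox6*, higher) in place of 0 was past the limit in 1KO minus WT at day 4, 1 (*Rhox9*, lower) in place of 0 in 1KO+1CI minus 1KO at day 2, and 2 (*Rhox6* and *Rhox9*, lower) in place of 1 in 1KO+1CI minus WT at day 2. With a limit of 0.5, the members past it were 2 in place of 0 (1KO minus WT, day 2), 1 in place of 0 (1KO minus WT, day 4), 1 in place of 0 and 2 in place of 0 (1KO+1CI minus 1KO, days 2 and 4), and 2 in place of 1 on both of days 0 and 2 (1KO+1CI minus WT), where 1.67% to 9.68% of all genes in those comparisons and directions were past it. Over all genes the counts moved beyond 1.5 times in 18 of 45 recounts, all with the smaller pseudocounts; 1KO minus WT at day 0 went from 571 genes to 1680 and 2167. Rescaling to a common sum or by median ratios shifted the median gene by at most 0.10 between lines; between days the largest shift was -0.14 (common sum, WT day 4 minus day 2, where *Rhox5* went from -1.03 to -1.18). Between days, in recounts added after seeing the data, neither scaling changed which members were past the limit, and with either smaller pseudocount 2 in place of 0 (*Rhox6* and *Rhox9*, higher) were past it in WT day 2 minus day 0. Of 180 recomputed member differences 179 moved by less than the counting error and 1 by more (*Rhox6*, WT day 4 minus day 2, from -2.09 to -2.79 with a pseudocount of 0.01), and only *Rhox5* in 1KO+1CI minus 1KO at day 4 changed sign, from -0.01 to 0.04 with a common sum. No contrast of lines with the days as blocks, and no additive model of line and day, was run, since the members were chosen on these values. Depth limits *Rhox1* and *Rhox13* in WT cells, at 3 to 21 reads.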
